A study of Mus musculus with 10 samples.

Results

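The 10 genes described here are well-known transcriptional targets of p53, namely Cdkn1a, Mdm2, Trp53inp1, Ccng1, Bax, Bbc3, Pmaip1, Zmat3, Sesn1 and Phlda3. They were taken by symbol from a table of 24901 genes, and each symbol matched 1 line. Their transcription was measured as intronic RPKM in mouse embryonic stem cells given 2 mM bromouridine for 10 min. This unit counts intron reads of a gene, scaled to intron length and library size. Labelled RNA was captured with an antibody and sequenced (Bru-seq), so intronic reads report RNA that was being made during labelling more than stored mRNA. Culture medium held PD0325901 (1 µM, a MEK inhibitor), CHIR99021 (3 µM, a GSK3 inhibitor) and the cytokine LIF, and the labels mention both feeder fibroblasts removed by plating and feeder-free dishes.

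By their titles the 10 samples form 5 groups of 2. EloA_K754M and EloA_K754R cells carry Elongin A with a lysine changed to methionine or arginine, and EloA_WT is the wild-type group beside them. Elongin A is part of a complex that speeds transcript elongation by RNA polymerase II. Eed_null cells lack Eed, a core subunit of the histone methyltransferase complex PRC2, and are set against the wild-type line CJ7_WT. The 6 Elongin A libraries have 1 column each, while Eed_null and CJ7_WT have 1 column each that combines both replicates. The label for the parental line reads CJ7 for both edited groups and for CJ7_WT, but CCE28 for EloA_WT and Eed_null, and the Eed null samples also carry the genotype entry EloA null. If that field is right, line and genotype cannot be told apart in any comparison with EloA_WT or between Eed_null and CJ7_WT. The labels do not say whether replicates or edited clones were separate cultures, so the p-values speak of the variation among these libraries, which may be technical.

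p53 is a transcription factor that is held low by its own target Mdm2, a ubiquitin ligase, and is released by DNA damage and other stress. Its targets slow the cell cycle, prepare mitochondrial cell death, limit growth signalling or feed back on p53. Mouse embryonic stem cells carry abundant p53, and its targets are transcribed in them without added damage.

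Depth was of the same order among single libraries, but replicate 2 had more genes above 0 than replicate 1 in each group. The counts for replicates 1 and 2 were 20825 and 23100 in EloA_K754M, 21042 and 22756 in EloA_K754R and 21166 and 22258 in EloA_WT. Whole reads recovered from the RPKM steps came to between 27099023 and 39944720 per single library, 73965372 in pooled Eed_null and 89123974 in pooled CJ7_WT. A member had between 61 reads (Bbc3) and 15457 reads (Mdm2) in a single library. Of 12 naive pluripotency markers 11 were in the table, and none of these was at 0 in any column. Of 24 fibroblast markers 23 were in the table. Their summed level was 24.5 and 23.3 RPKM in EloA_K754M, 26.7 and 24.8 in EloA_K754R, 19.6 and 20.3 in EloA_WT, 26.5 in Eed_null and 26.4 in CJ7_WT, of which Fn1 alone made up between 6.99 and 11.6 RPKM. Of the 16 fibroblast markers tested, 15 had positive log2 changes in each mutant against EloA_WT. In both mutants the exception was Sparc, at −0.37 in EloA_K754M and −0.61 in EloA_K754R (3.22 and 4.28 RPKM in EloA_WT). Of the 16, 1 was called, as higher in EloA_K754R, where 0.686% of all genes were called higher. The called marker Tnc stood at 2.79 and 2.32 RPKM in EloA_K754M, 2.80 and 2.56 in EloA_K754R and 1.46 and 1.5 in EloA_WT. Tnc, Lox, Col5a2 and Ccdc80 had log2 differences of 0.71 to 0.82 in EloA_K754M and 0.575 to 0.82 in EloA_K754R against EloA_WT, and the medians of the 16 were 0.41 and 0.56. Col1a1 was between 0.578 and 3.80 RPKM over the 8 columns, and Dcn and Lum were at or under 0.130. Lum was at 0 in EloA_WT replicate 1, Twist1 and S100a4 were at 0 in EloA_WT replicate 2, and no marker was at 0 elsewhere. The part of feeder RNA in the results below was not tested. Tceb3, which encodes Elongin A, stood between 1.12 and 2.03 RPKM in the single libraries, but intron reads do not show an amino acid substitution. It stood at 1.89 RPKM in Eed_null and 1.51 in CJ7_WT, and Eed at 7.97 in Eed_null and 10.0 in CJ7_WT. The labels do not say how the null allele was made, so intron reads do not check it.

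Sequences before RefSeq start sites were searched for 7 of the 10 genes, in 11 windows of 250 bases (build GRCm38.p6, whereas the deposited values rest on mm9). The p53 half-site consensus, which reads the same on both strands, was found in 5 of these windows and in 7.13% of the 32851 windows of all genes. A pair of adjoining half-sites with at most 2 mismatches was found before the upstream start of Cdkn1a and before Ccng1, and in 0.661% of all windows. A match is a description of letters, not of binding. Shown are the windows of Cdkn1a and Ccng1, which hold the pairs, and of Mdm2, the highest member, which holds a single half-site. They lie at chr17:29090729-29090978 (plus strand), chr11:40755287-40755536 (minus strand) and chr10:117710759-117711008 (minus strand), and capitals mark half-sites and pairs.
Cdkn1a: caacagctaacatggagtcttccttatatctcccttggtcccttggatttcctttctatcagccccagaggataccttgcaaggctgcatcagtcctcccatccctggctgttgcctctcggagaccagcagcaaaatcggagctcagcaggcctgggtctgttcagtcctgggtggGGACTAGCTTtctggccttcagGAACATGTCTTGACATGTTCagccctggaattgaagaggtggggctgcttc
Ccng1: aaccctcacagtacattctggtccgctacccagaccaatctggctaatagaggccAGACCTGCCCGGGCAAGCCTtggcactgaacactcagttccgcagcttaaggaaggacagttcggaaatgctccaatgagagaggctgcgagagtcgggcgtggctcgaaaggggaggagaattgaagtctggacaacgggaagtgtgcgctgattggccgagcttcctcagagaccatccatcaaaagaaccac
Mdm2: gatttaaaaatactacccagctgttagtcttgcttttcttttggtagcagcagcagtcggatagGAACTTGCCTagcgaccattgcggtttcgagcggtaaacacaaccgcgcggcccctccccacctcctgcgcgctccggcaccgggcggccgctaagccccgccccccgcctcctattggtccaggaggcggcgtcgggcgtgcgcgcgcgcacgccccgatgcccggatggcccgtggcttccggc
The pair in the Cdkn1a window begins 51 bases before the start and has 1 mismatch, and a separate half-site begins at 73 bases. In Ccng1 the pair begins 195 bases before the start, also with 1 mismatch. The lone half-site in the Mdm2 window begins 186 bases before the start. Bax and the downstream start of Sesn1 hold a half-site each, while none was found in the windows of Bbc3 and Phlda3. For these genes, sequence outside the windows was not searched, so sites elsewhere are not covered.

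No member passed the test in any of the 3 comparisons among the Elongin A groups. Transcription was compared as log2 of RPKM plus 0.1 in limma, fitted over 15161 genes with Benjamini-Hochberg adjustment and a threshold of 0.05. In EloA_K754M against EloA_WT 0 of 10 members were called and 2 had an unadjusted p under 0.05 (Mdm2 and Sesn1), where the share called among all genes was 0.218% (0.0132% up, 0.204% down) and 15.4% had such an unadjusted p. In EloA_K754R against EloA_WT the counts were again 0 and 2 (Ccng1 and Pmaip1), where that share was 3.48% (0.686% up, 2.79% down) and 25.1% had such an unadjusted p. EloA_K754M against EloA_K754R gave 0 and 1 (Pmaip1), beside 0.29% and 18.5% of all genes. Limma-voom on the recovered reads called 0, 1 and 0 members in these comparisons, the 1 being Pmaip1, beside 2.08%, 8.4% and 3.25% of all 14839 genes it tested. The split over all genes in EloA_K754R against EloA_WT was 104 higher and 423 lower, but 164 and 160 with equal library medians and 676 and 570 with voom. In bulk samples, fewer cells transcribing a gene and less RNA per cell cannot be told apart. The comparisons with EloA_WT share its libraries, so they are not independent of each other.

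**Figure D1:**
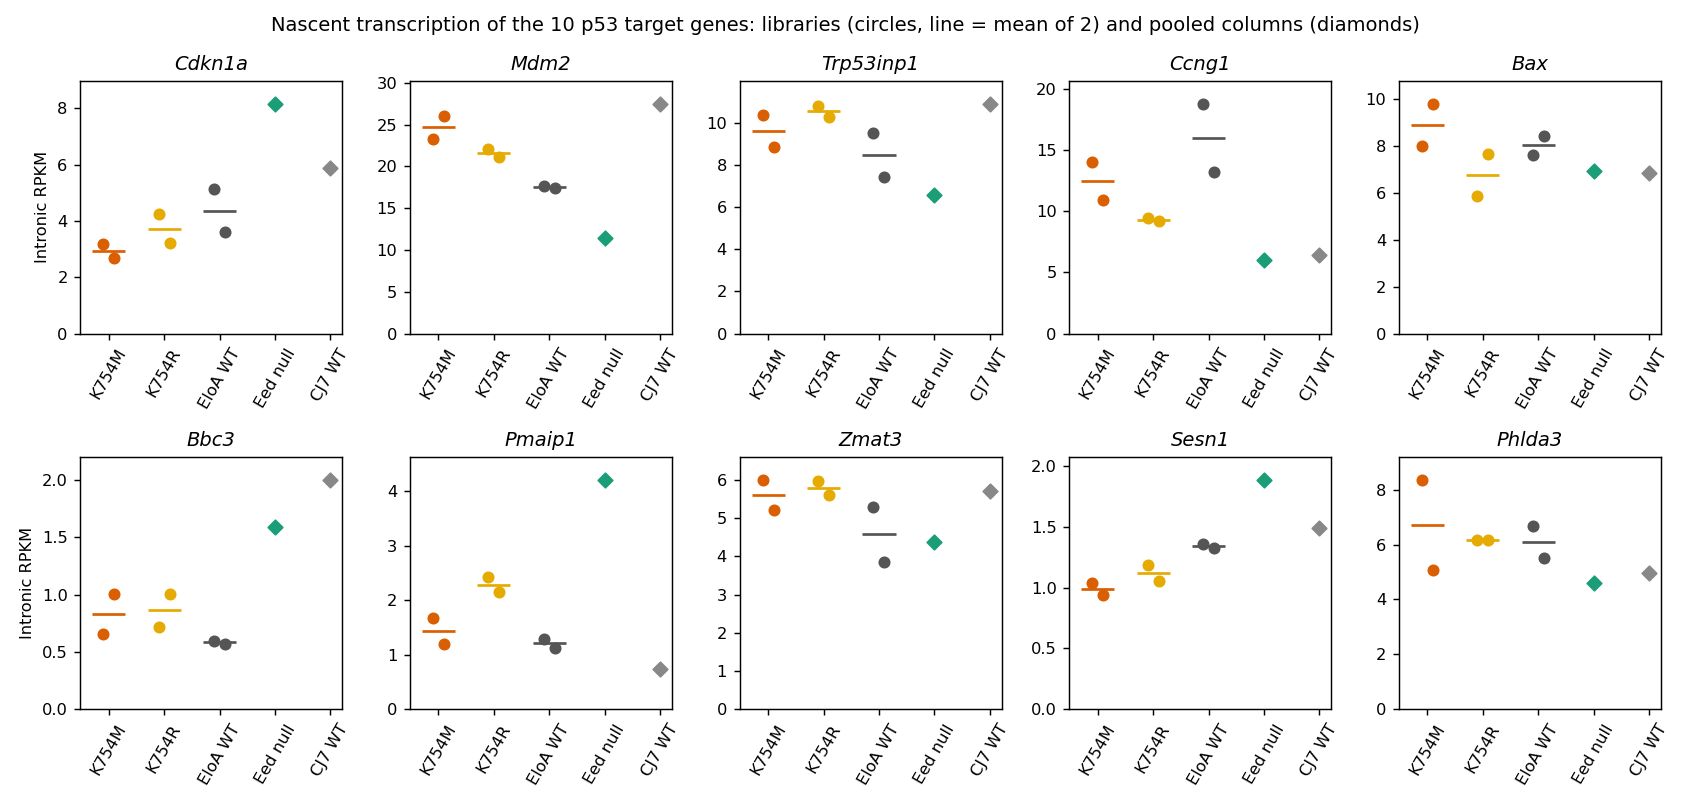
Intronic RPKM of each of the 10 genes (vertical axis, from 0) in the EloA_K754M, EloA_K754R and EloA_WT libraries (circles, with a line at the mean of 2) and in the pooled Eed_null and CJ7_WT columns (diamonds). Mdm2 is lowest and Pmaip1 highest in Eed_null, and the 2 EloA_WT libraries lie below all 4 mutant libraries for Mdm2 and Bbc3.

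Mdm2, the ubiquitin ligase that degrades p53 and is itself a p53 target, had the highest mean of the 10 genes (20.8 RPKM over the 8 columns). It stood at 23.3 and 26.0 RPKM in EloA_K754M, 22.1 and 21.2 in EloA_K754R and 17.65 and 17.5 in EloA_WT. All 4 mutant libraries lay above both wild-type libraries, and EloA_K754M lay above EloA_K754R. The log2 difference was 0.49 for EloA_K754M against EloA_WT (SE 0.14, 95% interval 0.15 to 0.83, limma adjusted p = 0.193). For EloA_K754R against EloA_WT it was 0.30 (interval −0.04 to 0.64, adjusted p = 0.246).

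Cdkn1a encodes p21, the inhibitor of cyclin-dependent kinases through which p53 halts the cell cycle. Its level was 3.19 and 2.69 RPKM in EloA_K754M, 4.25 and 3.22 in EloA_K754R and 5.13 and 3.60 in EloA_WT. Both EloA_K754M libraries lay below all others, whereas EloA_K754R overlapped EloA_WT. Means were 2.94 ± 0.354 RPKM in EloA_K754M and 4.36 ± 1.08 in EloA_WT (SD, n = 2 each), a log2 difference of −0.54 (interval −1.09 to 0.02, limma adjusted p = 0.338). Replicate 1 was the higher library in each group. With replicate number as a block, which no label ties to a shared day, the interval was −0.81 to −0.26 (limma adjusted p = 0.0804). EloA_K754R differed from EloA_WT by −0.21 (interval −0.76 to 0.34, adjusted p = 0.603). Without EloA_WT replicate 1, the higher library of its group, that value was 0.0387.

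Ccng1 encodes cyclin G1, a p53 target that recruits phosphatase 2A to Mdm2. It stood at 14.0 and 10.9 RPKM in EloA_K754M, 9.45 and 9.20 in EloA_K754R and 18.8 and 13.2 in EloA_WT. EloA_K754R lay below both other groups, and EloA_K754M overlapped EloA_WT. The log2 difference was −0.75 for EloA_K754R against EloA_WT (SE 0.22, interval −1.28 to −0.22, limma adjusted p = 0.108) and −0.34 for EloA_K754M (adjusted p = 0.518). With replicate number as a block in the fit, the EloA_K754R difference had a limma adjusted p of 0.0448, where 11.7% of all genes were called. No label says that a replicate number marks a shared day. Ccng1 lies on chromosome 11, whose 1314 tested genes had a median of −0.56 in EloA_K754R and −0.46 in EloA_K754M, each against EloA_WT. Of those genes 32.2% lay below Ccng1 in EloA_K754R and 65.8% in EloA_K754M.

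The 3 death genes encode members of the BCL2 family. Pmaip1 (Noxa), a BH3-only protein that neutralises MCL1, stood at 1.67 and 1.20 RPKM in EloA_K754M, 2.42 and 2.15 in EloA_K754R and 1.29 and 1.13 in EloA_WT. EloA_K754R lay above both other groups, and EloA_K754M overlapped EloA_WT. Its log2 difference of 0.87 in EloA_K754R against EloA_WT was the largest of any member in these comparisons (SE 0.19, interval 0.41 to 1.33, limma adjusted p = 0.0655). It passed the threshold with equal library medians (1.06, adjusted p = 0.0438) and with voom (1.04, adjusted p = 0.0364), and over its alternatives the adjusted p ran from 0.0274 to 0.279. EloA_K754M lay below EloA_K754R by −0.65 (interval −1.11 to −0.19, adjusted p = 0.161). These values rest on 106 and 78 reads in EloA_K754M, 169 and 201 in EloA_K754R and 107 and 79 in EloA_WT.

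Bbc3 (Puma), a BH3-only protein that binds all prosurvival BCL2 proteins, had the lowest mean of the 10 genes. It had 0.660 and 1.01 RPKM in EloA_K754M, 0.721 and 1.01 in EloA_K754R and 0.598 and 0.569 in EloA_WT. Both wild-type libraries lay lowest, and the mutant groups overlapped each other. The log2 differences against EloA_WT were 0.42 in EloA_K754M and 0.48 in EloA_K754R (limma adjusted p = 0.484 and 0.282), on between 61 and 144 reads a library. Bax, the effector that permeabilises mitochondria, stood at 7.98 and 9.79 RPKM in EloA_K754M, 5.885 and 7.65 in EloA_K754R and 7.64 and 8.44 in EloA_WT. EloA_K754M and EloA_K754R did not overlap, and their log2 difference was 0.39 (interval −0.05 to 0.84, adjusted p = 0.314). Bax shares its span in GENCODE M21 with another protein-coding gene model on the same strand, so its reads cannot be fully assigned. The same holds for Sesn1, with another model on its strand, and for Cdkn1a, with one on the opposite strand, since strand handling is unknown.

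Trp53inp1, a nuclear cofactor of p53 that also acts in autophagy, stood at 10.4 and 8.87 RPKM in EloA_K754M, 10.8 and 10.3 in EloA_K754R and 9.53 and 7.455 in EloA_WT. Zmat3, an RNA-binding zinc finger protein, stood at 6.00 and 5.21 RPKM in EloA_K754M, 5.98 and 5.59 in EloA_K754R and 5.29 and 3.85 in EloA_WT. For both genes EloA_K754R lay above EloA_WT and EloA_K754M overlapped it. Replicate 1 was the higher library of each group for both genes. Compared by replicate number, EloA_K754M also lay above EloA_WT in both pairs, but no label ties a number to a shared day. The log2 differences against EloA_WT were 0.18 and 0.32 for Trp53inp1 in EloA_K754M and EloA_K754R, and 0.30 and 0.35 for Zmat3, with limma adjusted p between 0.288 and 0.654.

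Sesn1, a sestrin that restrains mTORC1 under low leucine, was lowest in EloA_K754M, with 1.04 and 0.939 RPKM, followed by 1.19 and 1.06 in EloA_K754R and 1.36 and 1.32 in EloA_WT. No library of one group overlapped another group. The log2 difference was −0.41 for EloA_K754M against EloA_WT (SE 0.13, interval −0.73 to −0.08, limma adjusted p = 0.235) and −0.24 for EloA_K754R (adjusted p = 0.324). Phlda3, which competes with AKT for membrane lipids, had 8.36 and 5.08 RPKM in EloA_K754M, 6.17 and 6.16 in EloA_K754R and 6.67 and 5.50 in EloA_WT. EloA_K754M spanned both other groups, and the differences from EloA_WT were 0.10 and 0.02 in EloA_K754M and EloA_K754R (adjusted p = 0.883 and 0.967).

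Read by groups that do not overlap, the members lay on both sides. EloA_K754M lay above EloA_WT for 2 of 10 members (17.0% of all genes) and below for 2 (27.2% of all genes). EloA_K754R lay above EloA_WT for 5 (18.0% of all genes) and below for 2 (38.8% of all genes). EloA_K754M lay above EloA_K754R for 3 (31.9% of all genes) and below for 3 (18.6% of all genes). The median log2 difference of the members was 0.16 in EloA_K754M against EloA_WT, beside −0.06 for all genes, and 0.16 in EloA_K754R against EloA_WT, beside −0.14. With equal library medians the members' medians were 0.29 in EloA_K754M and 0.35 in EloA_K754R, beside 0.07 and 0.05 for all genes. EloA_K754M against EloA_K754R had a median of −0.05 over the members and 0.09 over all genes.

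**Figure D2:**
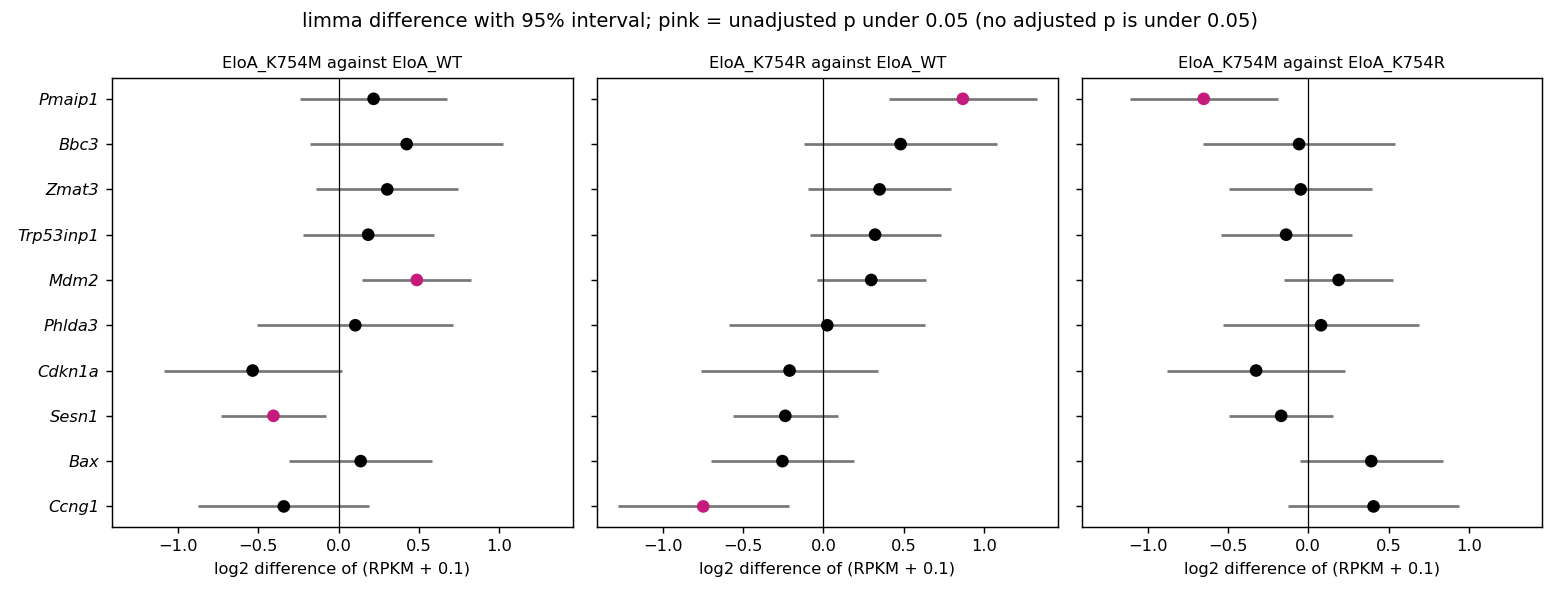
Log2 difference of RPKM plus 0.1 with its 95% interval from limma, for the 10 genes (rows) in the 3 comparisons among Elongin A groups (panels). Pink points have an unadjusted p under 0.05, none has an adjusted p under the threshold, and Pmaip1 in EloA_K754R against EloA_WT lies farthest from 0 at 0.87.

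Eed_null against CJ7_WT gave the widest spread, with Pmaip1 higher and Mdm2 lower than in CJ7_WT. Each group is 1 pooled column, so there is no replicate error and no test, and intervals are exact 95% intervals for counting error only. Reads without molecular identifiers are not independent molecules, so these intervals are too narrow for the biology. Pmaip1 stood at 4.21 RPKM (727 reads) in Eed_null and 0.741 (153 reads) in CJ7_WT, a ratio of 5.69 (interval 4.77 to 6.81). The CJ7_WT value lay below and the Eed_null value above all 6 Elongin A libraries. Of 14890 genes, 99.4% had a lower log2 ratio. Mdm2 stood at 11.4 RPKM (15390 reads) in Eed_null and 27.5 (44299 reads) in CJ7_WT, a ratio of 0.416 (interval 0.408 to 0.423). Of all genes 0.907% of genes had a lower log2 ratio, and the 2 columns again enclosed all 6 single libraries.

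These were the 2 members past 2-fold, 1 of 10 higher (6.12% of all genes) and 1 of 10 lower (1.67% of all genes). Trp53inp1 was lower, at 6.60 RPKM in Eed_null and 10.9 in CJ7_WT (ratio 0.605, interval 0.587 to 0.624), as was Zmat3, at 4.375 and 5.70 RPKM (0.767, interval 0.746 to 0.789). Bbc3 stood at 1.59 RPKM in Eed_null and 2.00 in CJ7_WT (0.792, interval 0.698 to 0.8975). Cdkn1a went the other way, at 8.16 RPKM in Eed_null and 5.87 in CJ7_WT (1.39, interval 1.31 to 1.47), and so did Sesn1, at 1.89 and 1.49 RPKM (1.26, interval 1.235 to 1.295). Ratios of Bax, Ccng1 and Phlda3 were 1.01, 0.941 and 0.928, and their intervals include 1. The median log2 ratio was −0.10 over the members and 0.11 over all genes. Intervals of this kind do not show whether a ratio exceeds the spread between cultures.

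**Figure D3:**
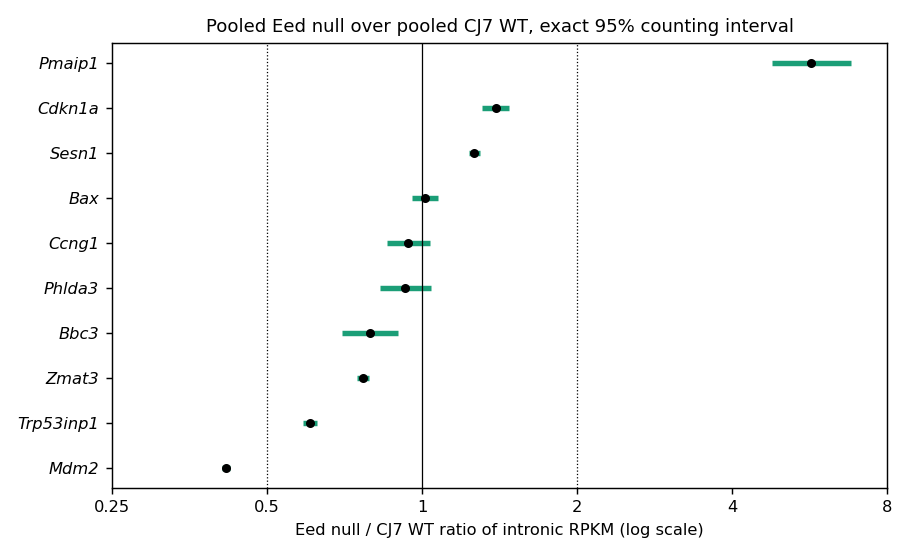
Ratio of intronic RPKM in pooled Eed_null over pooled CJ7_WT for the 10 genes (rows), on a log scale, with exact 95% intervals for counting error (bars, narrower than the point for Mdm2). Dotted lines mark 2-fold, which Pmaip1 at 5.69 and Mdm2 at 0.416 pass in opposite directions.

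RPKM is per intron length, so the members' levels can also be set side by side. Mean levels over the 8 columns ran from 1.02 RPKM for Bbc3, 1.29 for Sesn1 and 1.85 for Pmaip1, through 4.51 for Cdkn1a, 5.25 for Zmat3, 5.94 for Phlda3, 7.64 for Bax and 9.36 for Trp53inp1, to 11 for Ccng1 and 20.8 for Mdm2. Neighbours in this order overlap across columns, but Mdm2 was the highest member in each column but 1 EloA_WT library, where Ccng1 led at 18.8 RPKM. The ratio of the highest to the lowest column was 5.69 for Pmaip1, 3.52 for Bbc3, 3.12 for Ccng1, 3.03 for Cdkn1a, 2.41 for Mdm2 and 2.01 for Sesn1, and under 2 for the other 4.

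Across the 8 columns the members formed no single pattern. Of 45 pairs of members, 21 had a positive Pearson correlation of log2 levels, and the median was −0.06. Cdkn1a and Sesn1 went together (r = 0.959), as did Trp53inp1 with Zmat3 (0.906) and Mdm2 with Trp53inp1 (0.810), while Ccng1 and Bbc3 ran opposite (−0.892). Columns share a scaling and, for some, a cell line, and 2 of them are pools, so these values describe the 8 columns only. Among 7987 genes averaging 1 RPKM or more, those most like Cdkn1a over the 8 columns were Glt1d1 (r = 0.991), Unkl (0.990), Rnf213 (0.983), Rusc2 (0.982) and P2ry14 (0.982).

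The wider pathway was read from 5 lists of 66 other genes, of which 60 were tested. In EloA_K754M against EloA_WT 0 of the 60 were called by limma (0.218% of all genes) and 2 by voom (2.08% of all genes). Their median log2 difference was 0.0015, and 20 had an unadjusted p under 0.05, as had 15.4% of all genes. In EloA_K754R against EloA_WT 4 fell (2.79% of all genes) and 0 rose (0.686%), and voom called 7 (8.4% of all genes). The median was −0.06, and 19 had an unadjusted p under 0.05, as had 25.1% of all genes. In EloA_K754M against EloA_K754R limma called 0 (0.29% of all genes) and voom 6 (3.25% of all genes), while 21 had an unadjusted p under 0.05, as had 18.5% of all genes.

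Trp53, which encodes p53 itself, was 1 of the 4 that fell in EloA_K754R. It stood at 5.71 and 6.07 RPKM in EloA_K754M, 4.56 and 5.75 in EloA_K754R and 8.92 and 9.84 in EloA_WT. Neither mutant group overlapped EloA_WT, with log2 differences of −0.66 in EloA_K754M (limma adjusted p = 0.140) and −0.86 in EloA_K754R (SE 0.15, adjusted p = 0.0470). Trp53 lies on chromosome 11, where 26.9% of tested genes lay below it in EloA_K754M and 22.9% in EloA_K754R. Eed_null had 8.34 RPKM and CJ7_WT 6.745 (ratio 1.24, interval 1.17 to 1.31). Mdm4, the partner of Mdm2 that blocks the p53 activation domain, had 20.0 and 21.1 RPKM in EloA_K754M, 17.9 and 17.75 in EloA_K754R and 16.3 and 15.4 in EloA_WT (log2 differences 0.37 and 0.17, adjusted p = 0.258 and 0.455). Like Mdm2 it was lower in Eed_null, at 14.0 RPKM, than in CJ7_WT, at 21.2.

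The other 3 that fell in EloA_K754R are Sesn2, Gdf15 and Trp53i13. In EloA_K754M against EloA_WT these 3 were also lower, by −0.51, −1.32 and −0.61 in that order, but not called (limma adjusted p = 0.186, 0.154 and 0.156). CJ7_WT stood at 6.67 RPKM for Sesn2, 0.412 for Gdf15 and 0.571 for Trp53i13. Sesn2, a sestrin that is also a target of the stress factor Atf4, stood at 2.84 and 2.49 RPKM in EloA_K754R and 6.87 and 6.55 in EloA_WT (log2 change −1.31, limma adjusted p = 0.0244). Gdf15, a secreted stress cytokine also induced through Atf4, stood at 0.356 and 0.228 RPKM in EloA_K754R and 1.58 and 1.87 in EloA_WT (−2.24, adjusted p = 0.0364). Trp53i13, on chromosome 11, stood at 0.377 and 0.377 RPKM in EloA_K754R and 0.787 and 0.717 in EloA_WT (−0.84, adjusted p = 0.0482). The median of all tested chromosome 11 genes in this comparison was −0.56. None of the 4 calls remained when any 1 of the 6 libraries was left out, when the adjusted p of these genes lay between 0.0661 and 0.233, with 2 residual degrees of freedom in place of 3, or when only the 2 groups were fitted. Calls over all genes then also fell away, to between 1 and 9 without 1 library and 1 with 2 groups, against 527 in all 6 libraries. Without 1 library the log2 differences ranged from −1.40 to −1.21 for Sesn2, −2.47 to −2.0 for Gdf15, −1.02 to −0.695 for Trp53 and −0.894 to −0.777 for Trp53i13.

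Over all genes 2.79% were called lower in EloA_K754R against EloA_WT, and the lists are too short to be compared by such counts. By list, p53 and its upstream regulators had 1 of 18 tested genes lower in EloA_K754R (Trp53), growth arrest targets 0 of 8, cell death targets 0 of 11, DNA repair targets 1 of 9 (Trp53i13) and metabolic and secreted targets 2 of 14 (Sesn2 and Gdf15). Medians in EloA_K754R against EloA_WT were 0.08, −0.07, 0.16, −0.40 and −0.24 in that order. In EloA_K754M against EloA_WT they were 0.02, 0.0034, 0.12, −0.02 and −0.24. Genes with large differences that were not called include Pml of nuclear bodies (−0.77 in EloA_K754M, adjusted p = 0.0810), the desmosomal protein gene Perp (0.71 in EloA_K754M, adjusted p = 0.140) and the death gene Siva1 (−0.81 in EloA_K754R, adjusted p = 0.0969). Cdkn1b, encoding the kinase inhibitor p27, had −0.71 in EloA_K754M, Psrc1, a microtubule protein, had 0.69 there, and the repair enzyme gene Mgmt had −0.94 in EloA_K754R (adjusted p = 0.275, 0.186 and 0.129). Bak1, the relative of Bax, had −0.66 and −0.68 in EloA_K754M and EloA_K754R, Hipk2, a kinase of p53, had 0.62 in EloA_K754R, and Cdkn2a, whose Arf product inhibits Mdm2, had −0.66 in EloA_K754M (adjusted p from 0.124 to 0.307). Gtse1, a p53 antagonist in G2, had −0.20 in EloA_K754R (adjusted p = 0.330).

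**Figure D4:**
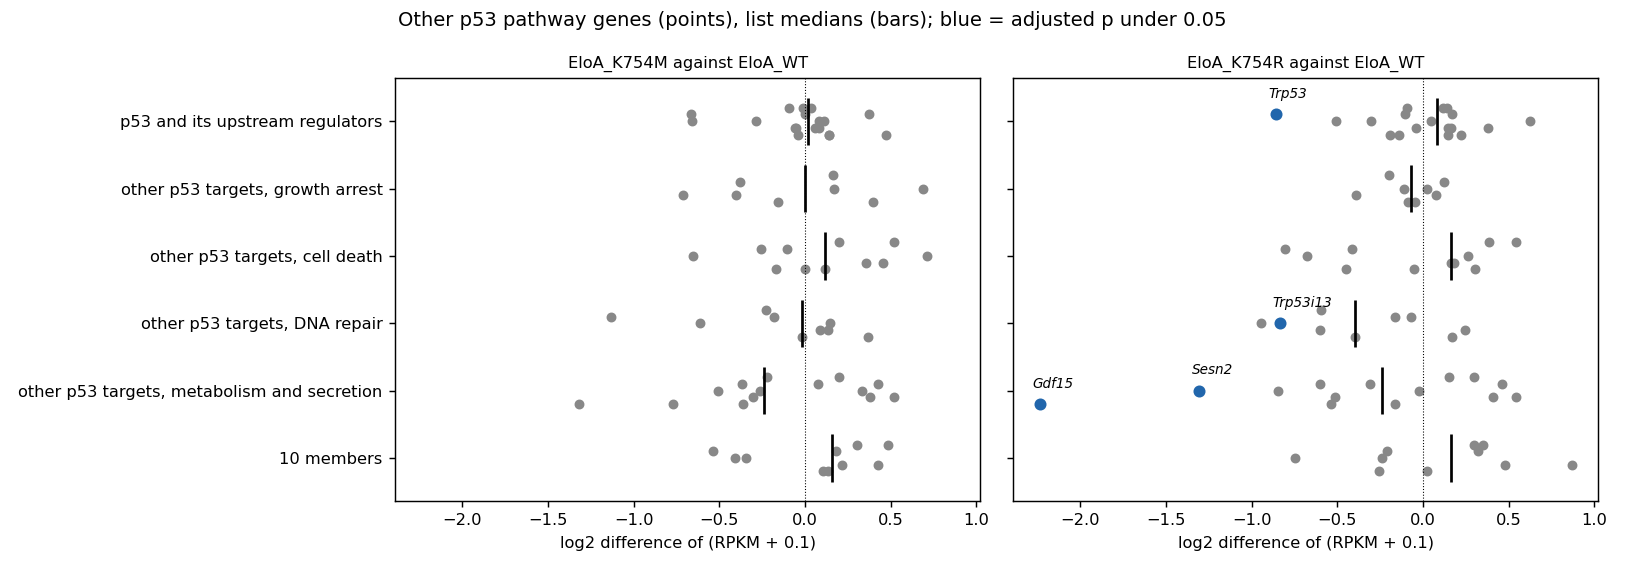
Log2 difference of RPKM plus 0.1 for the 10 members and for the tested genes of 5 lists of other p53 pathway genes (rows), in EloA_K754M (left) and EloA_K754R (right) against EloA_WT. Points are genes, bars are list medians, and the 4 blue points are the genes that fell in EloA_K754R (Trp53, Trp53i13, Sesn2 and Gdf15).

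Of the same 60 genes, 2 were past 2-fold higher in Eed_null against CJ7_WT (6.12% of all genes) and 0 past 2-fold lower (1.67% of all genes). These are Cdkn1b, at 1.775 RPKM in Eed_null and 0.779 in CJ7_WT, and Trp53i11, a p53-induced membrane protein gene, at 0.362 and 0.119 RPKM.

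The wild-type groups also had unlike levels. For each of the 10 members the pooled CJ7_WT value lay outside both EloA_WT libraries, above for 6 (28.8% of all genes) and below for 4 (53.1% of all genes). Bbc3 stood at 2.00 RPKM in CJ7_WT and at 0.598 and 0.569 in EloA_WT, and Ccng1 at 6.41 in CJ7_WT and 18.8 and 13.2 in EloA_WT, log2 differences of 1.62 and −1.28. Mdm2 was at 27.5 RPKM in CJ7_WT and 17.65 and 17.5 in EloA_WT. For Mdm2, Trp53inp1, Ccng1 and Bbc3 both mutant means lay between the CJ7_WT value and the EloA_WT mean. For Cdkn1a, Sesn1, Pmaip1, Bax and Phlda3 neither mutant mean did, and for Zmat3 only that of EloA_K754M. The share of all genes with either pattern was not counted. No test was possible for a single pooled column, and line and group cannot be told apart here.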

How the data were processed

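The authors deposited 1 table of intronic RPKM. BWA and the build mm9 are named in the submitters' processing notes. Version, intron annotation, counter and strand handling: not given in the sources used here. RPKM were tested for whole reads: steps shared by all columns gave whole numbers (tolerance 0.01 reads, 0.06 at high values) in 20816 of 20817 genes that were above 0 in at least 6 columns (99.995%).

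For the 6 single libraries, log2(RPKM + 0.1) entered 1 linear model of 3 groups (limma 3.58.1, R 4.3.3, moderated with a variance trend) over the 15161 genes averaging 0.1 RPKM or more, two-sided, adjusted over all genes, threshold 0.05, 3 residual degrees of freedom. "Rose", "fell" and "called" mean passing it. Because of the offset, log2 values understate changes of low genes. Eed_null and CJ7_WT were compared over 14890 genes without a test, with exact 95% count intervals (scipy 1.17.1). The fit was tested on simulated data. Chromosomes and overlaps came from GENCODE M21.

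The members and lists were chosen with earlier results of these data known. Named were all members, Trp53, Mdm4, each called list gene, and in each list the 2 with the largest change in each mutant, except 1 that is counted in its list but not reported here. Trp53i11 and the fibroblast markers given by name were added after their values were seen. Alternatives covered offsets, filters, scaling, voom on recovered reads with trimmed-mean (TMM) scaling, a replicate block, 2-group fits and leaving out each library.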

Additional observations from a re-analysis of the deposited data

How the results depend on the processing

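With 2 libraries a group, the test resolves only large or tight differences, and 0 called members does not show equal transcription. Without 1 library no member was called, but then EloA_K754R against EloA_WT had only 1 to 9 calls over all genes, so this says nothing about stability. In EloA_K754R against EloA_WT 1 member (Pmaip1) was called with equal library medians (2.14% of all genes) and 1 (Pmaip1) with voom on recovered reads (8.4%). With a replicate block 2 were called (Pmaip1 and Ccng1, beside 11.7% of all genes), against 3.48% of all genes in the fit used above. The cause was not tested. Of 420 recomputed member changes, 404 kept their direction and side of the threshold, 4 passed it and 12 changed sign. Filters, the replicate block and leaving out a library of the group not compared left each log2 difference unchanged by design. No sign could change in those settings, so the 404 is not a measure of stability. Eed_null against CJ7_WT kept 2 members past 2-fold with offsets of 0.01 and 1 and with equal medians, the log2 ratio of Pmaip1 being 1.58 with the offset of 1.

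Differences between replicates 1 and 2 correlated between groups across genes, with r of 0.166, 0.197 and 0.152, but no label says that a number marks a shared day and each comparison has only 2 pairs. Among the members, replicate 1 lay above replicate 2 in all 3 groups for Cdkn1a, Trp53inp1, Ccng1, Pmaip1, Zmat3, Sesn1 and Phlda3. Bax had the reverse order, and Mdm2 and Bbc3 no shared one. By replicate number, EloA_K754M lay above EloA_WT in both pairs for Trp53inp1, Zmat3, Pmaip1 and Bax and below for Ccng1, although these groups overlapped. EloA_K754R lay below EloA_WT in both pairs for Cdkn1a and Bax. The share of all genes with such orders was not counted. With the replicate block the adjusted p was 0.0274 for Pmaip1 and 0.0448 for Ccng1 in EloA_K754R. The block called 2, 11 and 2 of the 60 other pathway genes in EloA_K754M against EloA_WT, EloA_K754R against EloA_WT and EloA_K754M against EloA_K754R, beside 1.5%, 11.7% and 2.34% of all genes. These settings for pathway genes were added after seeing the data. Voom called 2, 7 and 6, beside 2.08%, 8.4% and 3.25%. In EloA_K754R against EloA_WT the 4 calls became 1 with no filter, 2 with equal library medians, 1 with quantile normalization, 0 with only the 2 groups compared, and 0 without any 1 library.

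Signs that changed belonged to small differences. Without 1 library, EloA_K754M against EloA_WT ranged from −0.00821 to 0.283 for Bax, −0.00552 to 0.441 for Pmaip1, −0.25 to 0.46 for Phlda3, −0.049 to 0.275 for Hipk2, −0.26 to 0.55 for Mgmt and −0.545 to 0.0379 for Siva1. EloA_K754R against EloA_WT ranged from −0.46 to 0.0387 for Cdkn1a, −0.11 to 0.16 for Phlda3 and −0.13 to 0.18 for Psrc1. EloA_K754M against EloA_K754R ranged from −0.33 to 0.21 for Bbc3, −0.147 to 0.053 for Zmat3 and −0.28 to 0.43 for Phlda3. With quantile normalization Mdm2 in EloA_K754M against EloA_K754R was −0.0513, and Pml in EloA_K754R against EloA_WT was 0.00638. With equal library medians Pml was 0.0283.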
